A study of Rattus norvegicus with 6 samples.

Results

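The genes described here are 10 rat genes of the unfolded protein response and the integrated stress response: Hspa5, Hsp90b1, Calr, Herpud1, Dnajb9, Xbp1, Atf4, Asns, Trib3 and Ddit3. They were chosen by name, through the RefSeq accession attached to each array probe, and all 10 were found among the 15443 named genes and 27455 features of the array. The probes' accessions were NM_013083 (Hspa5), NM_001012197 (Hsp90b1), NM_022399 (Calr), NM_053523 (Herpud1), NM_012699 (Dnajb9), NM_001004210 (Xbp1), NM_024403 (Atf4), NM_013079 (Asns), NM_144755 (Trib3) and NM_001109986 (Ddit3). Each gene had 1 probe, which was well above background on all 6 arrays. The series holds 6 one-colour Agilent arrays of total RNA from Sprague Dawley rats aged 13 weeks. A sham-operated myocardium gave 1 array (sham), and a myocardium with induced infarction and an injection of phosphate-buffered saline into the muscle gave 1 array (PBS). Infarcted myocardium injected with adipose-derived stem cells (ADSCs) that carried 124I-HIB gave the treated pair, replicates 1 and 3 in the labels. HIB is hexadecyl iodobenzoate, a lipid-soluble tracer that lodges in cell membranes, and 124I is a positron-emitting iodine. The other 2 arrays held cultured ADSCs, 1 with 124I-HIB and 1 without, at 14 days of culture. The labels date all 4 myocardial arrays to 21 days after a sham operation, infarcted hearts included, so the time since infarction is unclear.

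The unfolded protein response is set off when misfolded protein gathers in the endoplasmic reticulum (ER). Its sensors ATF6, IRE1 (gene Ern1) and PERK (gene Eif2ak3) raise ER chaperones, degradation factors and the transcription factor XBP1, while PERK and other kinases that phosphorylate the initiation factor eIF2 slow translation and favour synthesis of ATF4. ATF4 turns on genes of amino acid supply and the factor CHOP, encoded by Ddit3, which is linked to cell death when stress lasts. In the heart these responses are known from ischaemia and overload, and secretory cells such as collagen-producing mesenchymal cells rely on the same chaperones.

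The promoters are shown because the members divide by which exact matches to control elements were found there. Windows of 250 bases before to 50 bases after each annotated start were taken from RefSeq (assembly GRCr8), and all 10 members had one. Both strands were searched for the ER stress response element (ERSE, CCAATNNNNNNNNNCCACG), its second form ERSE-II (ATTGGNCCACG), the C/EBP-ATF element of ATF4 targets (TTGCATCA) and a looser core of that element (TGATGNAA), which holds TTGCATCA as its reverse complement. ERSE was found in 0.076% of 27457 windows of this length, ERSE-II in 0.055%, TTGCATCA in 0.743% and TGATGNAA in 3.82%. Capitals mark the matches, and each sequence runs 5′ to 3′ on the strand of the gene.
Hspa5, chr3:38452766-38453065, plus strand: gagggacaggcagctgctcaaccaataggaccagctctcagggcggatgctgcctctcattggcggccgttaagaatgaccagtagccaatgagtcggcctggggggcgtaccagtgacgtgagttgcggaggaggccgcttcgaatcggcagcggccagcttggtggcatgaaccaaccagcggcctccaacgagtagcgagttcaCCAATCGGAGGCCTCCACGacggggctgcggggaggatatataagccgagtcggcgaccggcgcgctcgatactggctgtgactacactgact
Hsp90b1, chr7:23012244-23012543, minus strand: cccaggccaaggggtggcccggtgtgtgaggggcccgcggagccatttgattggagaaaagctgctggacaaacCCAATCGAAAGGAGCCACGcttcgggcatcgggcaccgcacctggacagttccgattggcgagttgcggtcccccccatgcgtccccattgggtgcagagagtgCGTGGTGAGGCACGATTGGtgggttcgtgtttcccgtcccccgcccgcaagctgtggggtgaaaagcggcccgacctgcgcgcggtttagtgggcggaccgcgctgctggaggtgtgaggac
Calr, chr19:40213117-40213416, plus strand: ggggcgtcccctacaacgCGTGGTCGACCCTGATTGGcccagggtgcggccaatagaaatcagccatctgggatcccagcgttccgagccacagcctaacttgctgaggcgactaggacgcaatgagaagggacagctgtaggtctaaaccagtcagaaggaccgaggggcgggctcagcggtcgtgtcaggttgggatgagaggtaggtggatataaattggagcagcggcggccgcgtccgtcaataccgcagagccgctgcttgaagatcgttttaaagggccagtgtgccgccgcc
Xbp1, chr14:84604373-84604672, plus strand: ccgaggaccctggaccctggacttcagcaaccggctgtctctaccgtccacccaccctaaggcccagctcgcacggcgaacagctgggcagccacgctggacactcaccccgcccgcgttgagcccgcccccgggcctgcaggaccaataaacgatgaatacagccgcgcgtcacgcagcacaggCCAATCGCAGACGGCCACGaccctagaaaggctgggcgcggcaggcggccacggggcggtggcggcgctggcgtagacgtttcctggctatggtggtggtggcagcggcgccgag
Herpud1, chr19:10614658-10614957, minus strand: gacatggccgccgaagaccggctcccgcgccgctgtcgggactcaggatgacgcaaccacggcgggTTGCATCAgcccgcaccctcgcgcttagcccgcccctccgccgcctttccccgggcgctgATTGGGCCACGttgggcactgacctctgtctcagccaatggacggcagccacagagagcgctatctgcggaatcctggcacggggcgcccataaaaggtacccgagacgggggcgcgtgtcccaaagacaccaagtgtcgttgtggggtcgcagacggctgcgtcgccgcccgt
Trib3, chr3:161275484-161275783, minus strand: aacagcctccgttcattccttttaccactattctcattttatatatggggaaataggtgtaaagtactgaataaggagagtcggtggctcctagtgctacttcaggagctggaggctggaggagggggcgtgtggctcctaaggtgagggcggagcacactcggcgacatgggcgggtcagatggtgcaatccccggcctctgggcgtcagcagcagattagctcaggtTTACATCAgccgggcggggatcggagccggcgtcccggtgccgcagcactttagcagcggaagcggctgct
In Hspa5 the ERSE lay from -43 to -25 relative to the start, and in Xbp1 from -65 to -47. Hsp90b1 held 2, from -176 to -158 and, on the opposite strand, from -72 to -54. The Calr match lay on the opposite strand from -232 to -214. Herpud1 held an ERSE-II from -124 to -114 and a TTGCATCA from -184 to -177, and Trib3 a TGATGNAA match on the opposite strand from -21 to -14. The windows of Ddit3, Atf4, Asns and Dnajb9 held no exact match. The search did not cover near matches, so a window without an exact match may still hold an element. The Ddit3 window, for example, held an ERSE on the opposite strand that was complete except for GCACG in place of CCACG. Such near matches were not counted in the other windows, so how common they are is not known here. A match describes the sequence and is no evidence that a factor bound there.

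Across the 6 arrays the signal at the 75th percentile of spots ran from 762 (sham) to 2587 (labelled cells), between 64.4% and 69.4% of probes were well above background, and no spot was saturated. Levels are given as log2 processed signal minus the array's own 75th percentile, so 0 is the level of a spot at that percentile. The PBS array stood apart from the other myocardial arrays in several markers of atrial muscle. Myl7, an atrial myosin light chain, was at a level of 7.62 on PBS, -0.44 on sham and 2.03 and 0.84 on the treated arrays. Of 6 atrial markers, 6 were well above background on PBS and 3 or 4 on the other myocardial arrays. Their summed level was 456 times the 75th percentile on PBS and 143 to 171 times on the others. Of the 4 measured on both sham and PBS, 3 stood higher on PBS, while Myl4 stood lower (log2 difference -0.23). Of 8 mesenchymal markers, 8 were well above background on both cell arrays, Thy1 at 0.95 and 0.84. Of 8 cardiomyocyte markers, 5 were well above background on both cell arrays and Myh6, Myl2 and Myl3 were not. Of 7 macrophage markers, 4 were so on the unlabelled and 2 on the labelled array, and Ptprc on neither. Sham, PBS and each cell condition had 1 array, and the labels do not say whether the treated pair came from different rats. The p-values below therefore reflect only how far these particular samples spread, and that spread could be technical.

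**Figure D1:**
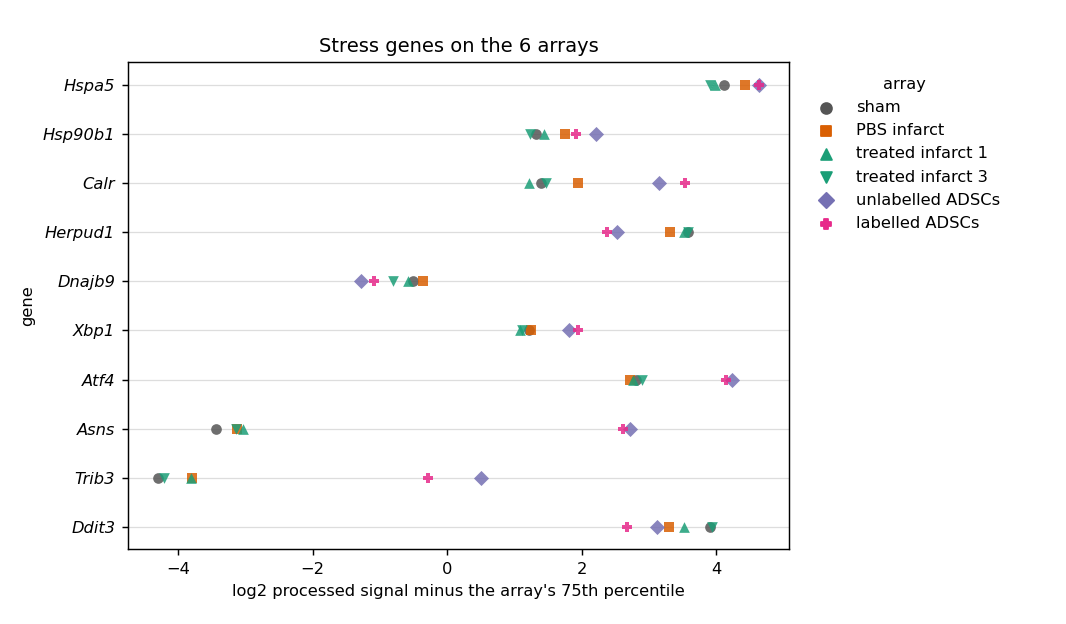
Level of each of the 10 stress genes (vertical axis) on each of the 6 arrays (symbols), as log2 processed signal minus the array's 75th percentile (horizontal axis). Each symbol is 1 array, with no error bar. The cell arrays of Asns and of Trib3 lie far to the right of the same gene's 4 myocardial arrays. Herpud1, Dnajb9 and Ddit3 lie lower on both cell arrays than on all 4 myocardial arrays.

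The first comparison set ADSCs carrying the tracer against ADSCs without it, which asks whether labelling left a trace in stress gene expression. No member was 2-fold apart, against 1.02% of the 18271 features well above background on both arrays. The members stood on both sides of 0, with 4 higher and 6 lower on the labelled array and a median log2 difference of -0.10, where the median over all features was -0.04. Of all features 43.2% stood higher and 56.8% lower. With 1 array a condition there was no replicate error and no test.

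The ER chaperones did not move one way. Hspa5 encodes BiP, the main ER chaperone of the Hsp70 family and the classical reporter of ER stress. Its level was 4.63 on both cell arrays, a log2 difference of 0.00, and 99.3% of features were at least as far apart. Calr, a calcium-binding lectin chaperone, was at 3.15 on the unlabelled and 3.53 on the labelled array (difference 0.38). Hsp90b1, the ER form of Hsp90, was at 2.21 and 1.91 (difference -0.30). The 3 chaperones therefore stood level, higher and lower on the labelled array, in that order.

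Herpud1, a membrane protein of ER-associated degradation, was at 2.52 without and 2.38 with the tracer. Dnajb9, an ER co-chaperone of BiP, was at -1.28 and -1.08. Xbp1, the transcription factor made active when IRE1 splices its RNA, was at 1.81 and 1.94, and the probe's signal here was not split by splice form. These 3 genes differed by 0.20 or less on the log2 scale, and between 43.7% and 58.9% of features differed by as much.

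On the ATF4 side Trib3, Ddit3, Atf4 and Asns all stood lower on the labelled array, where 56.8% of all features did. Trib3, a pseudokinase induced by ATF4 and CHOP, had the largest difference of the 10. Its level was 0.50 on the unlabelled and -0.28 on the labelled array, a log2 difference of -0.78 (1.72-fold), and 2.47% of features were at least as far apart. Trib3 was the only member past 1.5-fold. Its treated pair in myocardium, where the gene was dimmer, differed by 0.40. Ddit3 was at 3.11 and 2.68 (difference -0.44, with 12.8% of features at least as far). Atf4 itself was at 4.24 and 4.14, and Asns, the asparagine synthetase that ATF4 induces, at 2.71 and 2.62. For these last 2 genes the cell arrays differed by less than the treated pair did.

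The other genes of the pathways were grouped in 9 lists of 140 genes, 122 of them on the array, and no list gene was 2-fold apart between the cell arrays. Of the effectors of ATF4 and CHOP, 10 of 14 measured genes stood lower on the labelled array, with a list median of -0.05. The largest differences were those of Sesn2, a stress-induced regulator of TORC1 (-0.53), Jdp2 (-0.51) and the transcription factor Atf5 (-0.46). Of the amino acid genes 11 of 17 stood lower (median -0.15), and 9 of 12 tRNA synthetase genes did (median -0.09), where 56.8% of all features stood lower. Slc7a5, the large neutral amino acid transporter, had the largest difference of any list gene, at -2.41 without and -3.23 with the tracer (-0.82). Slc6a9, a glycine transporter (-0.50), and Phgdh, the first enzyme of serine synthesis (-0.49), followed.

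The ER lists were split on these arrays. In ER folding, 7 genes stood higher and 9 lower (median -0.06), with the disulfide isomerase Pdia4 at -0.57 and the BiP cofactor Sil1 at -0.45 beside Creld2 at 0.33. In ER-associated degradation 5 stood higher and 7 lower, with Derl3 at -0.60. In contrast, 10 of 12 cytosolic heat shock genes stood higher (median 0.13), where 43.2% of all features did. Hspa4l, an Hsp110 family chaperone, led with 0.57, while Hsp90ab1 was at -0.35. Beside these lists, smooth muscle markers stood higher on the labelled array in 4 of 4 genes (median 0.42), and mesenchymal markers in 3 of 8 (median -0.03). Their part in the differences was not tested. The 9 list medians ran from -0.15 to 0.13.

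**Figure D2:**
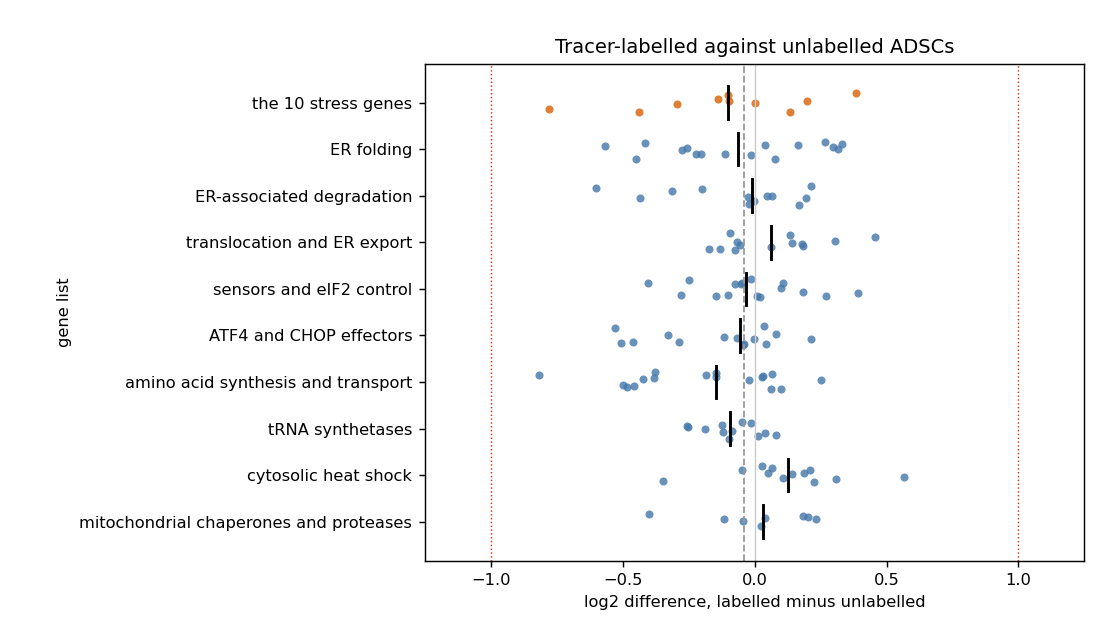
Log2 difference between tracer-labelled and unlabelled ADSCs (horizontal axis), 1 point per measured gene, for the 10 stress genes and 9 gene lists (vertical axis), with 1 array a condition. Black bars are list medians, the dashed line is the median of all features (-0.04), and dotted lines mark 2-fold. No point crosses 2-fold; the leftmost are Slc7a5 (-0.82) and, among the members, Trib3 (-0.78).

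In myocardium, the PBS infarct array was set against sham to ask how the infarcted heart differed. No member was 2-fold apart, against 3.53% of 17255 features. Of the 10 members 7 stood higher on PBS and 3 lower, where 44.5% of all features stood higher and 55.5% lower. The members' median was 0.23, where all features had -0.05. The scaling mattered at this size: scaling by each array's median placed the median of all features at -0.16 and that of the members at 0.12, and under it the Xbp1 difference turned from 0.02 to -0.09. Atf4 turned from -0.10 to 0.03 with quantile normalization. The other 8 members kept their sign in every alternative tried. Differences of bulk tissue cannot tell fewer cells of a type from less RNA per cell.

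The chaperones were highest on the PBS array. Hspa5 was at 4.12 on sham, 4.42 on PBS, and 3.98 and 3.90 on the treated arrays. Calr was at 1.40 on sham, 1.94 on PBS, and 1.21 and 1.47 on the treated arrays. Hsp90b1 was at 1.32 on sham, 1.75 on PBS, and 1.44 and 1.23 on the treated arrays. For each of the 3, the PBS array lay above the other 3 myocardial arrays by more than the treated arrays lay apart. Against sham the differences were 0.30 for Hspa5, 0.54 for Calr and 0.43 for Hsp90b1.

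The same array was the lowest of the 4 for Ddit3, Herpud1 and Atf4, which is 3 of 10 members (30.0%), where it was the lowest for 29.3% of all features. Ddit3 was at 3.91 on sham, 3.29 on PBS, and 3.52 and 3.94 on the treated arrays, so that PBS lay 0.62 below sham (1.53-fold) and was the only member past 1.5-fold in this comparison. The treated arrays alone spanned 0.42 for Ddit3, and no neighbours in the order of its 4 myocardial levels lay further apart than that. Herpud1 was at 3.58 on sham, 3.32 on PBS, and 3.52 and 3.58 on the treated arrays. The gap from PBS up to the next array was 0.20 for Herpud1, where the treated pair differed by 0.06.

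The other members lay at varied levels in the heart. Atf4 ran from 2.71 to 2.89 over the 4 myocardial arrays and Xbp1 from 1.08 to 1.24. Dnajb9 was at -0.51 on sham, -0.36 on PBS, and -0.58 and -0.80 on the treated arrays. Trib3 ran from -4.30 on sham to -3.80 on PBS, at processed signals of 38.7 to 90.6, and Asns from -3.43 on sham to -3.03 on treated replicate 1. The PBS minus sham differences of Trib3 (0.50) and Asns (0.30) shrank to 0.03 and 0.05 with normexp background correction.

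Counted over the 4 myocardial arrays, PBS held the highest level for 6 of 10 members (60.0%) and for 11 of 14 ER folding genes (78.6%), where it did so for 25.0% of all features. For Trib3, Xbp1 and Dnajb9 it led the next myocardial array by only 0.0065, 0.02 and 0.15. The treated pair lay further apart for each of these genes (0.40, 0.03 and 0.22). Of the ER folding genes, 12 of 14 stood above sham, where 44.5% of all features did. Their median was 0.21, and 0.10 to 0.25 under the other normalizations. Pdia4 led with 0.66, followed by the disulfide isomerase Pdia6 (0.40), the cyclophilin Ppib (0.36) and the oxidase Ero1a (0.32). The degradation list did not stand higher (5 of 12, median -0.07), nor did translocation (5 of 13, median -0.09), where Srprb, a subunit of the signal recognition particle receptor, reached 0.96. The sensors had a median of -0.02, with Atf6 at 0.33 and Ern1 at -0.66. Of the ATF4 and CHOP effectors, 10 of 15 stood higher on PBS and 5 lower (median 0.15, but 0.02 with normexp), with Nupr1 at 1.15 and Ddit4 at -0.81. Beside these groups the cardiomyocyte markers were lower on PBS than on sham in 8 of 8 genes (median -0.48, but -0.03 with quantile normalization) and the smooth muscle markers higher in 3 of 3 measured (summed level 4.68 against 2.41). The mesenchymal markers were higher on PBS in 6 of 7 genes (median 0.09, but -0.02 with median scaling), Cd44 by 0.41 and Col1a2 by 0.37, and PBS was the highest of the 4 arrays for 57.1% of them. The part of these markers, and of the atrial markers above, in the chaperone levels was not tested.

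**Figure D3:**
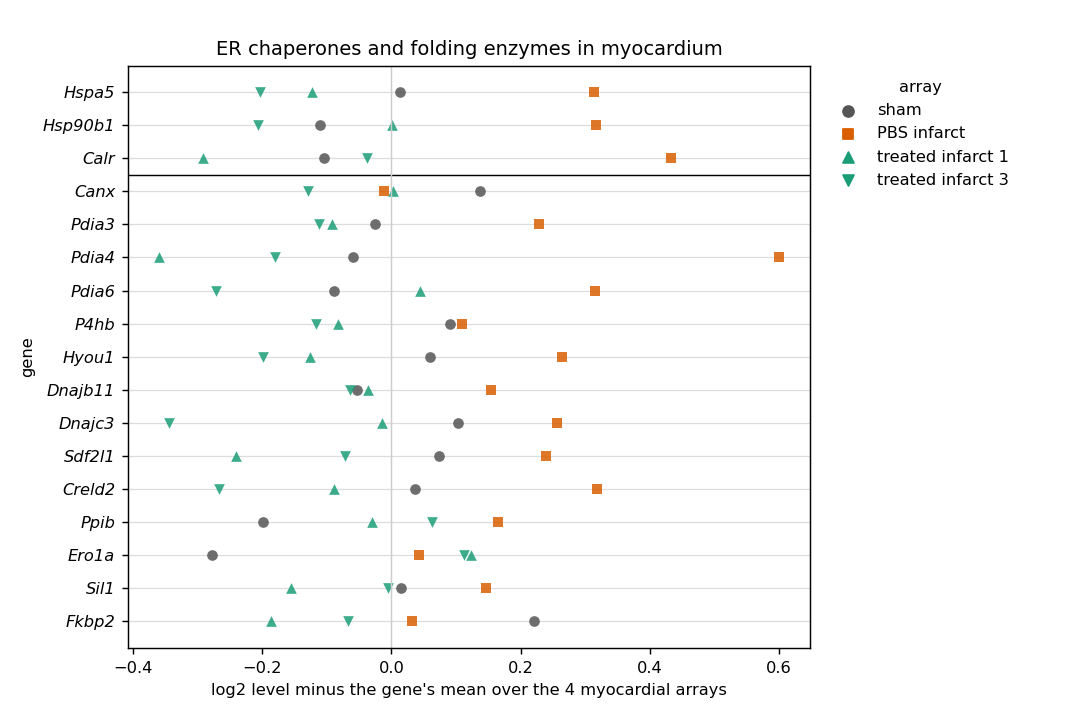
Log2 level of the 3 chaperone members (above the line) and of the 14 ER folding genes measured on all 4 myocardial arrays (below it), each minus the gene's own mean over those arrays (horizontal axis). Each symbol is 1 array, with no error bar. The PBS infarct lies furthest right for Hspa5, Hsp90b1, Calr and 11 of the 14 genes; Canx, Ero1a and Fkbp2 are the exceptions.

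The array genes that hold the same promoter elements stood on both sides of 0. Of 28 named array genes whose window held an ERSE or ERSE-II, 22 were measured on sham and PBS, and 12 of them stood higher on PBS (median 0.02). Without the members, 8 of 17 stood higher and the median was -0.10. Over the 4 myocardial arrays, PBS was the highest for 9 of 22 (40.9%) and the lowest for 8 (36.4%). Without the members it was the highest for 5 of 17 (29.4%) and the lowest for 7 (41.2%). Of all features it was the highest for 25.0% and the lowest for 29.3%. The share of all windows holding ERSE or ERSE-II was 0.131%. Of 91 named array genes whose window held TTGCATCA, 52 were measured on sham and PBS. Of these, 24 stood higher on PBS and 28 lower (median -0.03), where 44.5% of all features stood higher. PBS was the highest of the 4 myocardial arrays for 23.5% of the TTGCATCA genes and the lowest for 37.3%.

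Treated myocardium was then set against the PBS infarct, asking what followed the injection of labelled ADSCs. No member was 2-fold apart in both treated arrays, against 1.23% of 17338 features, and no feature passed limma at an adjusted p under 0.05 (0% of 19607, with 1840 at an unadjusted p under 0.05 and 48 passing with limma's trend and robust options). The members' adjusted p ran from 0.537 to 0.955. Of the 10 members, 3 stood higher than PBS on both treated arrays, 6 stood lower on both, and Asns lay on different sides. Of all features 37.0% stood higher on both and 36.0% lower on both. The comparison uses the PBS array already described, so its signs are not independent of those against sham.

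The chaperones were lower than PBS in both treated arrays. Calr lay 0.72 and 0.47 below PBS in replicates 1 and 3, a mean log2 difference of -0.60 (SE 0.20, limma adjusted p = 0.537). Hspa5 lay 0.44 and 0.52 below (mean -0.48, SE 0.16, limma adjusted p = 0.543), and Hsp90b1 0.32 and 0.52 below (mean -0.42, SE 0.19, limma adjusted p = 0.625). Dnajb9 had a mean difference of -0.33 and Xbp1 of -0.15. The mean for Trib3 was -0.21, of which replicate 3 gave -0.40 and replicate 1 gave -0.01. Ddit3 lay 0.23 and 0.65 above PBS (mean 0.44, SE 0.26, limma adjusted p = 0.698), and Herpud1 0.23 above on average.

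In the ER folding list, 12 of 14 genes were below PBS in both treated arrays (median -0.28), where 36.0% of all features were. Pdia4 stood at -0.87, Creld2 at -0.50 and the BiP exchange factor Hyou1 at -0.43. Markers were lower on both treated arrays too, in 3 of 3 measured smooth muscle genes (median -0.92) and 3 of 3 measured atrial genes (median -2.26). So were 4 of 7 mesenchymal genes (1 higher on both, median -0.18, Cd44 at -0.67) and 5 of 7 macrophage genes (2 higher on both, median -0.28). Of 8 cardiomyocyte genes, 2 were lower on both and 3 higher on both. The part of these markers was not tested. Among the ATF4 and CHOP effectors the picture was mixed, with 4 of 15 higher and 5 of 15 lower in both arrays. Nupr1, a small stress-induced chromatin protein, was 2-fold lower in both: it was at -1.47 on sham, -0.32 on PBS, and -1.78 and -1.36 on the treated arrays. It was also the only list gene 2-fold higher on PBS than on sham (1.15). The serine enzymes Psat1 (-0.88) and Phgdh (-0.88) were below PBS too, while Ddit4, a TORC1 inhibitor, was above it (0.94). None of these passed limma, and Nupr1 had an adjusted p of 0.407.

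Against sham, treated myocardium showed small differences in the members. None was 2-fold apart in both treated arrays, against 0.927% of 17052 features, and limma called 0% of 19607 features (1854 at an unadjusted p under 0.05, 56 with trend and robust). The members' adjusted p ran from 0.604 to 0.991 in this limma fit. Asns had the largest mean difference (0.34, but 0.10 with normexp). Trib3 followed with 0.29 (-0.08 with normexp), of which replicate 1 gave 0.49 and replicate 3 gave 0.10. Hspa5 was at -0.18, Calr at -0.06 and Hsp90b1 at 0.01, so the treated means of the chaperones lay within 0.18 of sham. Single arrays lay further off in part. Hspa5 was below sham on both treated arrays, by 0.14 on the nearer one, where the treated pair differed by 0.08. Ddit3 differed by -0.18 and changed sign without treated replicate 1 (0.03). Of the 10 members, 2 lay above sham on each treated array, 3 lay below it on each, and the other 5 lay on different sides. Of all features 31.4% lay above sham on each and 43.8% below it on each. In all, 6 members changed sign under at least 1 alternative, among them Atf4 (0.02), Herpud1 (-0.03), Hsp90b1 and Calr. ER folding genes were below sham in both treated arrays in 10 of 14 cases (median -0.20), where 43.8% of features were. The ATF4 and CHOP effectors lay the other way, with 11 of 15 above sham in both and 2 below in both. Their median was 0.24, but 0.04 with normexp, and 31.4% of all features lay above sham in both. Cardiomyocyte markers were below sham in both in 8 of 8 genes (median -0.44, but 0.01 with quantile normalization) and mesenchymal markers in 4 of 7 (median -0.15, but 0.02 with normexp), and their part was not tested.

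The widest differences lay between cultured ADSCs and myocardium, a comparison of cell source that the series did not set out to make. Conditions within each source stood as replicates, and cell and myocardial arrays occupied different rows of the slide, so array row and source cannot be told apart. Of the members, 7 were higher on both cell arrays than on all 4 myocardial arrays, against 41.3% of 15886 features, and 3 were lower on both, against 39.1%. In limma the same numbers passed an adjusted p of 0.05: 7 rose in cells, where 33.0% of 21177 features did, and 3 fell, where 35.6% did. Leaving out 1 array, 10 members passed limma without PBS, 9 without treated replicate 1, 8 without sham, without treated replicate 3 or without labelled cells, and 7 without unlabelled cells. Scaling by the array median moved the median of all features from 0.03 to 0.28, and every member kept its sign under it and under every other alternative tried.

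Asns and Trib3 differed most. Asns was at 2.71 and 2.62 in cells and between -3.43 and -3.03 in myocardium, a log2 difference of 5.85 (SE 0.15, 57.6-fold, limma adjusted p = 8.32e-07). Before scaling, the processed signal of this probe was 70.7 to 155 in myocardium and 15274 and 15868 in cells. Trib3 was at 0.50 and -0.28 in cells and between -4.30 and -3.80 in myocardium, a difference of 4.13 (SE 0.27, 17.6-fold, limma adjusted p = 3.41e-05). With normexp the log2 differences were 5.24 for Asns and 3.28 for Trib3, whose processed signal in myocardium was 38.7 to 90.6. Only 1.04% of features were as far apart as Asns, and 2.76% as far as Trib3.

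Their inducer differed less. Atf4 was at 4.24 and 4.14 in cells and 2.71 to 2.89 in myocardium (difference 1.39, SE 0.11, 2.63-fold, limma adjusted p = 8.83e-05). Ddit3, another ATF4 target, went the other way, with 3.11 and 2.68 in cells and 3.29 to 3.94 in myocardium (-0.77, SE 0.24, limma adjusted p = 0.0277). The Ddit3 call was lost without sham, without treated replicate 3, without labelled cells (adjusted p = 0.176) and with median scaling (adjusted p = 0.111). Its lowest myocardial level, on PBS, lay 0.18 above its higher cell level, less than the treated pair lay apart.

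Calr rose most of the chaperones, with 3.15 and 3.53 in cells and 1.21 to 1.94 in myocardium (1.83, SE 0.23, 3.57-fold, limma adjusted p = 6.00e-04). Xbp1 rose by 0.71 (SE 0.12, limma adjusted p = 0.00193) and Hsp90b1 by 0.62 (SE 0.18, limma adjusted p = 0.0228). Hspa5 rose by 0.52 (SE 0.17, 1.44-fold, limma adjusted p = 0.0318), with 4.63 on both cell arrays and 4.42 on the nearest myocardial array, PBS. The Hspa5 call was lost when sham, either treated array or either cell array was left out (adjusted p 0.0551 to 0.118), and the Hsp90b1 call without unlabelled cells (0.143).

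Herpud1 and Dnajb9 fell in cells. Herpud1 was at 2.52 and 2.38 in cells and 3.32 to 3.58 in myocardium (-1.05, SE 0.13, 2.07-fold lower, limma adjusted p = 5.48e-04). Dnajb9 was at -1.28 and -1.08 in cells and -0.80 to -0.36 in myocardium (-0.62, SE 0.16, limma adjusted p = 0.0125). The Dnajb9 call was lost without unlabelled cells (adjusted p = 0.0849) and with median scaling (0.0741). Members with an exact ERSE or ERSE-II match in their window thus lay on both sides: Hspa5, Hsp90b1, Calr and Xbp1 rose and Herpud1 fell.

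Of the 9 lists around the members, 7 held more genes that rose in cells than fell and 2 held more that fell, by limma's calls adjusted over all features. Of the amino acid genes 16 of 18 tested rose in cells and 2 fell, with a median of 3.08 over the 11 measured on all arrays. Psat1, of serine synthesis, rose by 6.51 from -4.68 to -3.62 in myocardium to 2.32 and 2.17 in cells. Phgdh rose by 3.26, the glycine transporter Slc6a9 by 3.78 and the mitochondrial folate enzyme Mthfd2 by 3.22. The cystine transporter Slc7a11 was not well above background on any myocardial array and was at least 35.3-fold higher in cells, and Cbs, of cysteine synthesis, was at least 28.1-fold higher in myocardium. For these bounds the dim side is taken at the lowest signal that was well above background, or at the probe's own value if higher. Of the tRNA synthetases 11 of 12 rose (median 1.32), Nars1 by 2.52. Of the ATF4 and CHOP effectors 11 of 15 rose and 1 fell (median 1.78), and Nupr1 led with 5.30.

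In the ER lists, 13 of 16 folding genes tested rose and none fell, led by Pdia4 (2.12) and Pdia3 (2.08). The median was 1.73 over the 16 tested and 1.79 over the 14 well above background on all arrays. Of 13 translocation and export genes 12 rose (median 1.21), among them the translocon subunits Ssr2 (3.08) and Sec61b (3.06). Of 12 degradation genes 7 rose (median 0.65), led by the lectin Os9 (1.79). Of 16 sensors and regulators 13 rose and 1 fell, and the largest rise was that of Creb3l1, an ER-bound factor of collagen-secreting cells, by 4.40. In the cytosolic heat shock list 2 of 12 genes rose (16.7%) and 5 fell (41.7%), where 33.0% and 35.6% of all features did. Its lowest genes were Hspa4l (-5.16), the small heat shock protein Cryab (-2.56) and the co-chaperone Bag3 (-2.10). Of 8 mitochondrial chaperones and proteases 1 rose and 6 fell (median -1.16). Beside all these groups the markers of the sources differed too: the 8 cardiomyocyte markers had a summed level of 1637 to 2452 in myocardium and 2.76 and 2.88 in cells, and the 8 mesenchymal markers one of 33.6 to 43.0 and 218 and 227.

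**Figure D4:**
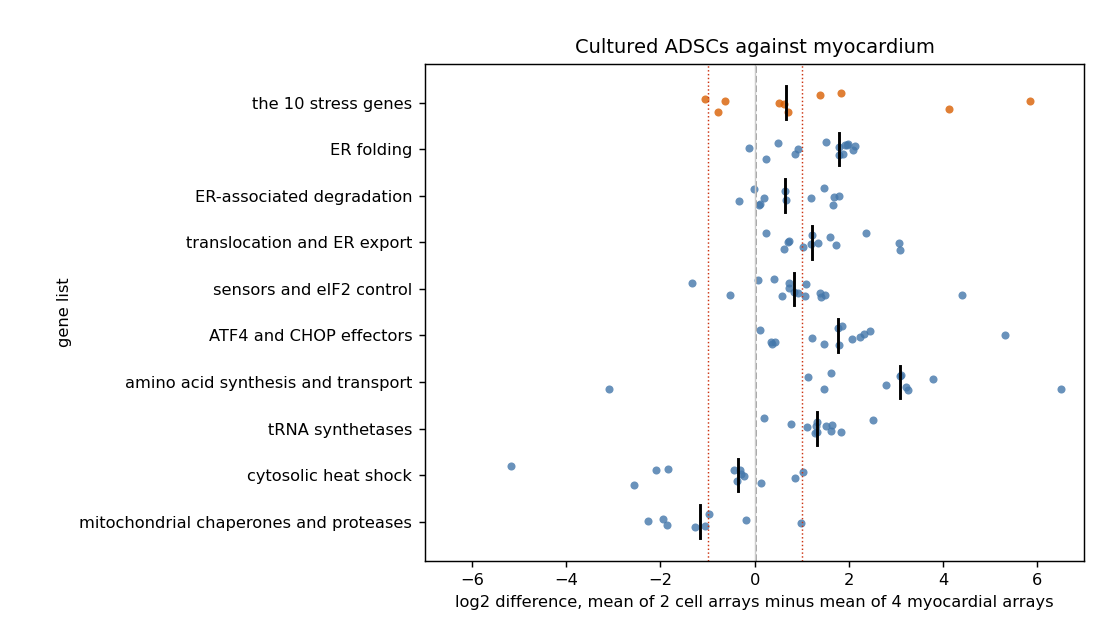
Log2 difference between the mean of the 2 cell arrays and the mean of the 4 myocardial arrays (horizontal axis) for genes well above background on all 6 arrays, by list (vertical axis). Points are genes, black bars list medians, the dashed line the median of all features (0.03), and dotted lines 2-fold. The amino acid list has the highest median (3.08), and Asns (5.85) and Trib3 (4.13) are the rightmost members. The medians of the heat shock and mitochondrial lists lie below 0, with 3 of 12 and 1 of 8 genes above it.

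Genes with profiles most like Hspa5 and Ddit3 were sought among 9600 named genes outside the lists that were well above background on all 6 arrays. Likeness was the root mean square distance between log2 profiles over the 6 arrays, each centred on its own mean. Nearest to Hspa5 were Clic2 (0.05), C1galt1c1 (0.06) and Usp22 (0.06). Nearest to Ddit3 were Lrrc1 (0.11), Tnfsf12 (0.12) and Adap1 (0.12).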

How the data were processed

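Per the labels, RNA was isolated on columns and labelled with Cy3 by Agilent's kit. The authors deposited scanner files with intensity values (processed signal, median signal, background) and background flags, for which the submitters' processing notes name Agilent Feature Extraction (version 11.0.1.1). A series table that the authors deposited holds log2 values; how these were made is not stated in the labels or headers. It followed log2 processed signal on each array, with 1 median over the 4 myocardial arrays and another over the 2 cell arrays, and served as an alternative within each source.

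Control and outlier-flagged spots were left out, spots of a probe averaged, and each array's 75th percentile subtracted from log2 processed signal. Probe accessions were matched to RefSeq genes (GRCr8), which named 18355 of 30367 probes. The file headers name an older build, so array coordinates were not used. The brightest probe stood for a gene. A 2-fold difference was counted where the feature was well above background on all arrays of that comparison. limma 3.58.1 (R 4.3.3), with Benjamini-Hochberg adjustment over all features, was fitted to the 4 myocardial arrays (1 residual degree of freedom, from the treated pair) and to all 6. The fit to all 6 was also run on simulated data with independent noise. Those data held no effect of array row and no differences between conditions within a source, so they cannot test the fit against either.

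Named are all members and, per list and comparison, up to 4 of the genes that differ most, beside markers and exceptions chosen after their values were seen. The members and lists were chosen with earlier results of these data known. Alternatives covered background correction (normexp with offset 50 on the median signal), normalization, the filter on dim probes, the probe per gene, the threshold, the variance model and single arrays. Figures used matplotlib 3.10.9.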

Additional observations from a re-analysis of the deposited data

How the results depend on the processing

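The number of arrays limits every value, and the 2-fold counts depend on dim probes. Labelled against unlabelled cells, 186 features were 2-fold apart, 71 with normexp, 1465 without the filter on dim probes and 1169 at 1.5-fold. PBS against sham gave 609, 241, 2358 and 2225 in the same order, treated against PBS 214, 89, 853 and 823, and treated against sham 158, 75, 831 and 703. Cells against myocardium gave 4779, with 7618 without the filter and 7388 at 1.5-fold. Members past the threshold were 0 in the first 4 comparisons, except that 1 passed at 1.5-fold in labelled against unlabelled cells (Trib3) and 1 in PBS against sham (Ddit3). With only 1 treated array, the counts were 429 to 511 against PBS and 366 to 396 against sham, and limma could not be fitted there for want of residual degrees of freedom. Features passing limma went from 0 to 63 (normexp) and 48 (trend and robust) for treated against PBS, and from 0 to 42, 56 and, with the authors' deposited values, 2 for treated against sham; no member passed in any of these. For cells against myocardium, 7 to 10 members passed when 1 array was left out and 8 with median scaling. The authors' deposited table was not used there, as its medians differ between the sources. No paired analysis was possible because sham, PBS and each cell condition have 1 array. The cause of these changes was not tested.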
